A study of Danio rerio with 10 samples.

Results

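The gene described here is cldnk, which encodes claudin k (identifier ENSDARG00000042357). It was taken by its identifier as 1 of 31388 features in the deposited count table. The RNAseq data compared 2 cell populations FACsorted from the dissociated spinal cord of adult zebrafish, with 5 libraries each. The OPC libraries came from GFP-positive cells of Tg(olig2:eGFP) fish and the OL libraries from GFP-positive cells of Tg(mbp:eGFP) fish, so each population came from a fish line of its own. No treatment is named for either group, and both groups share the dissociation and the sort for a living-cell dye. In the first line GFP is driven by regulatory sequence of olig2, a transcription factor gene of the oligodendrocyte lineage, and ventral radial glia also carry this reporter. In the second line it is driven by the promoter of mbp, a myelin gene. The 2 suspensions passed strainers of different mesh before sorting, and cords of several fish were pooled for a dissociation. Differences of population, fish line and strainer thus cannot be told apart. The libraries are described as biological replicates, but the sources do not say which fish went into which library. The study itself used cldnk, mbpa and mpz as markers of mature OLs, so their direction is not independent of that choice.

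Claudins are membrane proteins that form the strands of tight junctions, where they seal the space between neighbouring membranes. Myelin sheaths hold such strands between their own wraps. In mammals claudin 11 is the claudin of central myelin and claudin 19 that of Schwann cells, whereas in zebrafish cldnk is expressed by myelinating oligodendrocytes and Schwann cells and its regulatory sequence is used to label them.

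On the GRCz10 assembly cldnk lies on the minus strand of chromosome 3, from 49088239 to 49092400. The table gives it 2 exon blocks, 49088239 to 49089269 and 49091703 to 49092400, of 1031 and 698 bases. These sum to 1729 bases of exon and leave an intron of 2433 bases. Untranslated and coding parts are not marked in the table, and 0 other features overlap the gene. The nearest features were hgs, which encodes an endosomal sorting protein, 5367 bases away on the side of lower coordinates, and btr02, 598 bases away on the other side and on the same strand. Raw counts over the 10 libraries were 386 to 1715 for hgs and 5 to 58 for btr02. The lowest cldnk count was 6.91 times the highest count of any of the 5 features on either side. Of these neighbours 7 passed the filter on low counts and 0 differed between the populations by edgeR's quasi-likelihood test, with 0.0569 as the lowest adjusted p. Over all tested features 11.8% were called in either direction, so 0 of 7 does not set the neighbours apart. At an unadjusted p under 0.05, 1 was higher in OLs and 1 in OPCs, with no share over all features given at that threshold. DESeq2 and limma voom each called 1 in each direction. Of all 12292 features DESeq2 called 589 higher in OLs and 1395 in OPCs, and limma voom 638 and 1379.

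The libraries held 11072526 to 11960408 reads counted in genes in the OPC population and 13937725 to 20225093 in the OL population. No library repeated another, since the counts of any 2 libraries of a population differed by a chi-square of at least 28.6 per degree of freedom. Between 53480 and 164207 reads fell on cldnk in a library, so counting error was small beside the spread between libraries. The 95% Wilson interval of its share was at most 0.00881 percentage points wide, which covers the error of counting reads only. The cDNA was amplified before sequencing, so the sampling of cells and molecules before that step is not covered. Sequencing or sorting batches are not named in the labels. In the libraries labelled OPC, olig1, a lineage transcription factor gene, had 697 to 1681 normalized counts against 8.89 to 62.3 in the OL libraries. The reporter genes' own transcripts, olig2 and mbpa, were higher in the population sorted on each.

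cldnk was higher in OLs than in OPCs, but was abundant in both. After DESeq2 size factor scaling, OPC libraries 1 to 5 held 72148, 65655, 65444, 73517 and 49975 normalized counts of cldnk. OL libraries 1 to 5 held 117279, 103466, 102267, 100593 and 82371. Every OL library was above every OPC library, and library 5 was the lowest of its population in both. The means were 65348 ± 9346 (SD, n = 5) in OPCs and 101195 ± 12447 (SD, n = 5) in OLs, so that the OPC mean was 64.6% of the OL mean. The log2 fold change of OL over OPC was 0.63 ± 0.14 (SE), or 1.55-fold, with an adjusted p of 0.00948 by edgeR's quasi-likelihood test. A two-sided exact permutation test on the log2 scale gave p = 0.00794, the smallest that 5 against 5 libraries allow. In these bulk libraries, fewer cells with the transcript and less transcript per cell cannot be told apart.

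**Figure D1:**
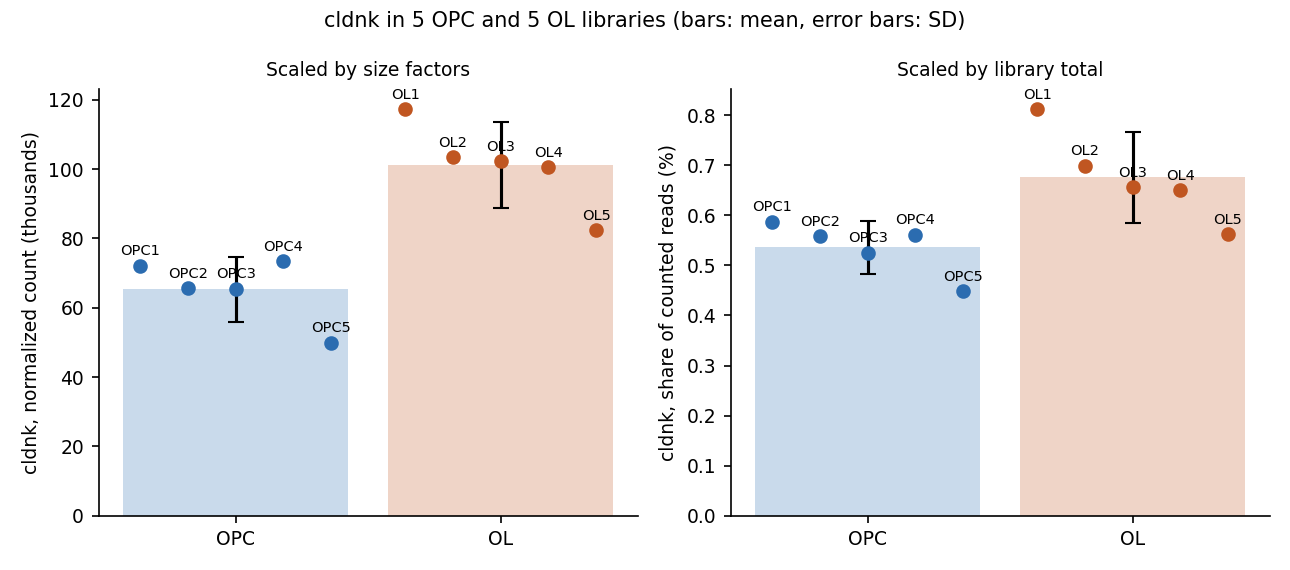
Level of cldnk in each of the 10 libraries, as normalized counts on the left and as the share of all counts in genes on the right; points are libraries, bars are means and error bars are SD over 5 libraries. Normalized counts do not overlap between the populations, whereas the share in OPC library 1 lies above that in OL library 5.

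The size of the difference depended on what the counts were scaled to. As a share of all counts in genes, cldnk took 0.587, 0.558, 0.525, 0.561 and 0.449% in OPC libraries 1 to 5. In OL libraries 1 to 5 it took 0.812, 0.699, 0.657, 0.651 and 0.563%. OPC library 1 was above OL library 5, so the shares overlapped although the mean share was lower in OPCs, at 0.536 ± 0.0534% (SD, n = 5) against 0.676 ± 0.0906% (SD, n = 5). The two-sided exact permutation test of the share gave p = 0.0159. When edgeR scaled by library size alone, the log2 fold change of cldnk was 0.34 and the adjusted p 0.0905. Under that scaling the median over all features moved from -0.06 to -0.36, and cldnk lay 0.70 above it against 0.69 with size factors. A change of scale moves all features by nearly the same amount, so this near-constant distance is no test of the difference.

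Of 12292 features tested, 347 were higher in OLs (2.82%) and 1108 were higher in OPCs (9.01%) at an adjusted p under 0.05, against 118 and 1811 with library size alone. cldnk was 1 of the 347, whose median log2 fold change was 0.86. Its fold was modest among them, as 78 had a smaller log2 fold change and 143 reached at least 2-fold. By adjusted p, 113 were lower than cldnk. Among the 137 most abundant features, with mean normalized counts from 10000 upward, 34 were higher in OLs (24.8%) and 3 in OPCs (2.19%). Of these 34, 19 had a larger log2 fold change than cldnk. The median log2 fold change of the 137 was 0.39, against -0.06 over all tested features, so abundant features leaned towards OLs as a class. Features whose OL libraries all lay above all OPC libraries, as for cldnk, numbered 452 (3.68%), and those without overlap in either direction 1550 (12.6%).

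Levels of different genes can be set side by side only per length, here as RPKM, the reads per kilobase of exon per 1000000 reads counted in genes. cldnk stood at 3100 ± 309 RPKM (SD, n = 5) in OPCs and 3911 ± 524 RPKM (SD, n = 5) in OLs. Its rank among all features by reads per kilobase was 10, 12, 12, 9 and 12 in OPC libraries 1 to 5, and 7, 8, 8, 8 and 9 in OL libraries 1 to 5. In OLs 6 features were above it in every library. These were cd59a at 84775 RPKM, plp1b at 42849, mbpa at 23685, mpz at 19575, stmn1 at 13819 and si:dkey-200l5.4 at 6450. The first 4 named are membrane or myelin genes and stmn1 encodes a tubulin-binding protein. malat1, a long non-coding RNA at 6206 RPKM, was above cldnk in 4 of 5 OL libraries, and dhrs12la, at 3510 RPKM, in 1. In OPCs the same 7 features were above cldnk in every library, and 4 more had a higher mean but were above it in only some of the 5 libraries. These neighbours in the order were dhrs12la at 3597 RPKM (4 libraries), glul at 3572 (3), tmsb4x at 3362 (3) and mt-co2 at 3144 (3).

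Among the marker genes of the study, to which plp1b was added here, cldnk moved with the compact myelin genes and against the lineage transcription factors. mbpa, which encodes myelin basic protein, had 521359, 588058, 586840, 570297 and 439486 normalized counts in OPC libraries 1 to 5 and 869905, 964623, 927952, 1043820 and 945619 in OL libraries 1 to 5. The mbpa libraries did not overlap, and its log2 fold change was 0.81 ± 0.12 (SE, adjusted p = 0.000638, edgeR's quasi-likelihood test). For mpz, the gene of the adhesive protein myelin protein zero, it was 0.59 ± 0.12 (adjusted p = 0.00388), or 0.29 (adjusted p = 0.0799) with library size alone, and for plp1b, the gene of a proteolipid protein of myelin, 0.81 ± 0.14 (adjusted p = 0.00142). olig2 was the opposite, with 13681, 16028, 15572, 16225 and 24346 normalized counts in OPCs and 5710, 4842, 2438, 2426 and 3195 in OLs. The olig2 libraries did not overlap either, and OPC library 5, the lowest of its population in cldnk, was the highest in olig2. The log2 fold change of olig2 was -2.21 and that of olig1 -5.66, which went to -6.36 without OL library 2. The olig2 transcript is no independent check of the sort, since its regulatory sequence drove the reporter, and the same holds for mbpa.

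**Figure D2:**
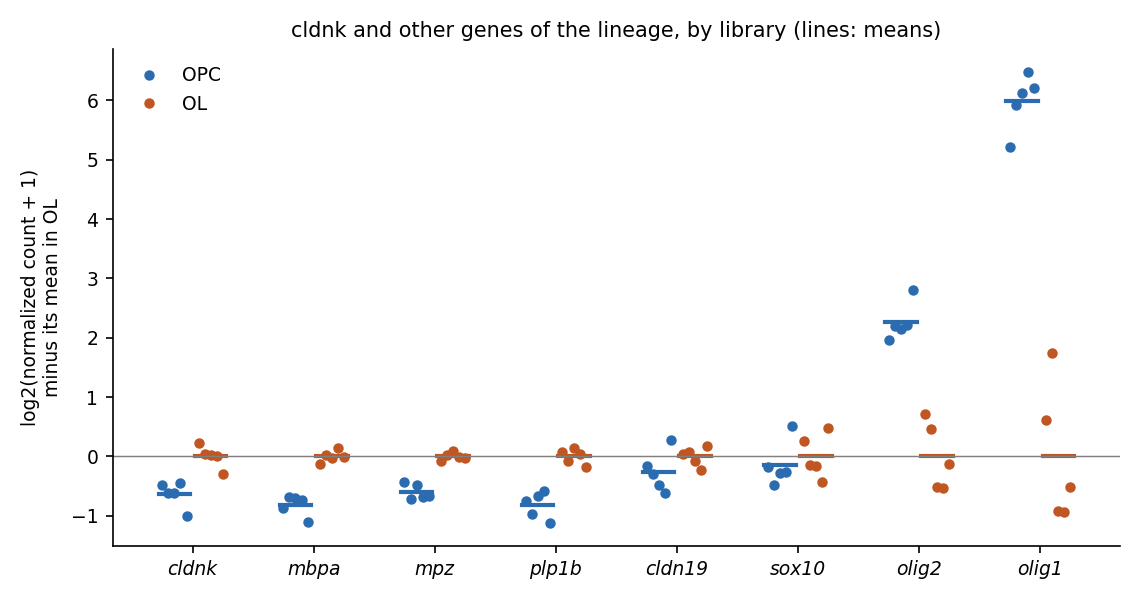
Log2 normalized count (plus 1) of cldnk, mbpa, mpz, plp1b, cldn19, sox10, olig2 and olig1, each as the difference from the gene's mean in OLs; points are the 10 libraries and short lines the means of 5 libraries. The OPC points of cldnk, mbpa, mpz and plp1b all lie below the OL points, those of cldn19 and sox10 overlap them, and those of olig2 and olig1 lie above.

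The ratio of cldnk to another gene within a library does not depend on the scaling between libraries. The log2 ratio of cldnk to mbpa counts was -3.05 ± 0.14 (SD, n = 5) in OPCs and -3.24 ± 0.24 (SD, n = 5) in OLs. To mpz it was -3.92 ± 0.22 in OPCs and -3.88 ± 0.20 in OLs. To plp1b it was -3.59 ± 0.13 in OPCs and -3.77 ± 0.12 in OLs. All 3 ratios overlapped between the populations. Two-sided exact permutation tests of the 3 differences gave p = 0.167 for mbpa, p = 0.794 for mpz and p = 0.0714 for plp1b. After Benjamini-Hochberg adjustment over the 3 these were 0.250, 0.794 and 0.214, so no unequal change was detectable with 5 libraries a population. Per length, cldnk was 17.3 to 21.4% of mbpa in OPC libraries and 13.5 to 20.9% in OL libraries. Against plp1b it was 9.34 to 11.6% in OPCs and at least 8.37% in OLs, ranges that overlap.

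cldnk was the dominant claudin of both populations. The reference names 41 features of the table as claudins, of which 7 had no read in any library and 8 passed the filter on low counts. The other 33 reached at most 60 counts in any library. Of the summed reads per kilobase of all claudins, cldnk took 76.9 to 88.2% in OPC libraries and 85.4 to 90.9% in OL libraries. Without division by length its share was lower, at 53.3 to 76.9% of their summed normalized counts over the 10 libraries. Of the 8 tested, 1 was higher in OLs, which was cldnk itself, and 2 were higher in OPCs, with a median log2 fold change of -0.05. Over all tested features 2.82% were called in the first direction and 9.01% in the second.

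The second claudin by level was cldn19, the counterpart of the mammalian Schwann cell claudin. It had 28514, 25999, 22905, 21009 and 38805 normalized counts in OPC libraries 1 to 5 and 33010, 33798, 30391, 27348 and 36333 in OL libraries 1 to 5. The populations overlapped, and OPC library 5, the lowest in cldnk, was the highest of all in cldn19. Its log2 fold change was 0.23 ± 0.17 (SE, adjusted p = 0.470, edgeR's quasi-likelihood test), and scaling by library size alone turned it to -0.089. Per length cldnk was 411 to 1117% of cldn19 in OPC libraries and 724 to 1174% in OL libraries, ranges that overlap. limma voom placed cldn19 at 0.39 with an adjusted p of 0.0489.

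The other claudins tested were lower than these. cldn12 stood at 81.8 RPKM in OPCs and 54.1 RPKM in OLs, with a log2 fold change of -0.28 ± 0.22 (SE, adjusted p = 0.523, edgeR). cldn15b had a log2 fold change of -0.02 (adjusted p = 0.961) and cldnd1a one of 0.64 (adjusted p = 0.480). cldn11, named for the claudin of mammalian central myelin, had 163, 120, 141, 334 and 121 normalized counts in OPC libraries 1 to 5 and 82.8, 39.3, 218, 208 and 284 in OL libraries 1 to 5. OPC library 4 was the highest in cldn11 and the populations overlapped, with a log2 fold change of -0.08 (adjusted p = 0.948) that changed sign when single libraries were left out. A further feature carries the same name in the reference and reached at most 9 counts.

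The 2 claudins that were higher in OPCs were at low counts. cldn7a had 146, 1072, 192, 610 and 286 normalized counts in OPC libraries 1 to 5 and 0.714, 4.27, 1.12, 0 and 20.7 in OL libraries 1 to 5. cldn29 had 120, 523, 67.5, 172 and 91.6 in OPC libraries and 0.714, 1.71, 0, 0 and 13.1 in OL libraries. Neither gene overlapped between the populations, and OL library 5 was the highest of the OL libraries in both. The log2 fold changes were -6.41 (adjusted p = 0.000399) for cldn7a and -5.92 (adjusted p = 0.00118) for cldn29 by edgeR's quasi-likelihood test. These are fitted folds over near-zero counts, and without OL library 5 they were -8.10 and -7.96. Without OPC library 2 they were -5.83 and -5.13.

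**Figure D3:**
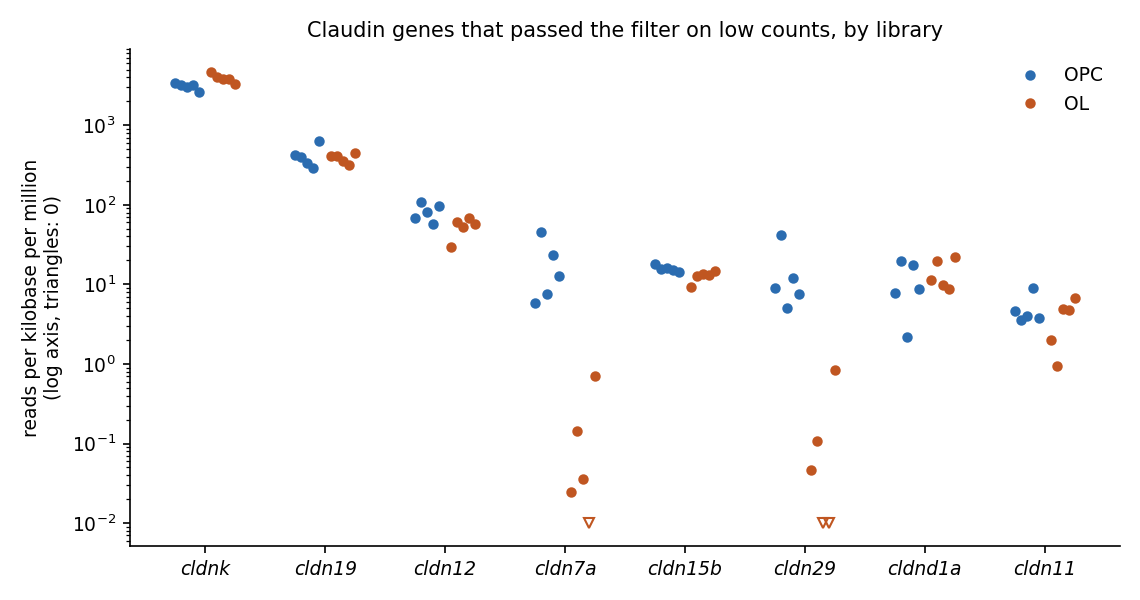
RPKM on a log axis for the 8 claudins that passed the filter on low counts, with points for the 10 libraries; triangles at the foot mark libraries with no read. cldnk is the highest in every library, cldn19 is next, and cldn7a and cldn29 are nearly without reads in OLs.

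Of 38 features named for tight junction partners of claudins 19 were tested, 0 were higher in OLs and 1 was higher in OPCs, with a median log2 fold change of -0.16. Both counts lie near the 2.82% and 9.01% of all features tested. At an unadjusted p under 0.05 edgeR and limma voom had 0 higher in OLs and DESeq2 had 1. No share over all features is given at that threshold. The member called was 1 of the features named magi1, the gene of a junctional scaffold, at -1.67 (adjusted p = 0.00260, edgeR). jam2a, the gene of a junctional adhesion molecule, had 6686, 6461, 8018, 7347 and 6089 normalized counts in OPC libraries 1 to 5 and 8270, 7428, 9142, 8437 and 8032 in OL libraries 1 to 5. These overlapped, and its log2 fold change was 0.26 ± 0.12 (SE, adjusted p = 0.219). tjp1b, the gene of a zonula occludens scaffold protein, was at -0.12 (adjusted p = 0.726). jam2a and tjp1b were chosen after their values were seen.

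Of 40 features on the list of myelin genes 31 were tested, and 3 were higher in OLs, mbpa, mpz and plp1b, or 9.68% against 2.82% of all features tested. limma voom called 8 higher in OLs, and 638 of all 12292 features in that direction. Another 2 were higher in OPCs, against 9.01% of all features, with a median log2 fold change of 0.05 over the 31. Of the 2, cnp, the gene of a cytoplasmic enzyme of myelin, was at -0.86 (adjusted p = 0.0299, edgeR). The count of 2 fell to 1 without OPC library 2, 3 or 4, with the replicate block and with at least 10 counts required in every library. It rose to 3 without OPC library 5, OL library 1 or OL library 4. pmp22a, the gene of peripheral myelin protein 22, was at least 106-fold lower in OLs, where it reached 1 count.

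Of the transcription factors of the lineage 21 of 25 features were tested, 1 was higher in OLs and 12 were higher in OPCs, with a median log2 fold change of -1.79. Over all features tested these shares were 2.82% and 9.01%, and the median was -0.06. The one higher in OLs was nkx6-2, a homeobox gene, with 563 to 856 normalized counts in OPCs and 965 to 1407 in OLs, a log2 fold change of 0.64 ± 0.17 (SE, adjusted p = 0.0247, edgeR). The count of 1 fell to 0 with library size alone, with at least 10 counts required in every library, without OPC library 1 and without OL library 4. myrf, the gene of a transcription factor needed for myelination in mammals, was at -0.0010 (adjusted p = 0.999) and sox10 at 0.13 (adjusted p = 0.793), both chosen after their values were seen. znf488 was higher in OPCs, with a log2 fold change of -4.12. Of the precursor genes 14 of 23 features were tested, 0 were higher in OLs and 9 were higher in OPCs, beside the same 2.82% and 9.01%, with a median of -3.92. gpr17, a receptor gene of cells about to differentiate, was at least 177-fold lower in OLs. The other 5 tested precursor genes, sox10 among them, were not called. Requiring at least 10 counts in every library left 3 calls instead of 9, but takes genes such as olig1 out of the test. At an unadjusted p under 0.05, 0 precursor genes were higher in OLs by edgeR or DESeq2 and 1 by limma voom. These counts have no share over all features at that threshold beside them.

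Markers of other cells also differed between the populations beside cldnk, and their part in its difference was not tested. The counts below stand against 2.82% higher in OLs and 9.01% higher in OPCs over all features tested. Of the neuron markers 16 were tested, 0 were higher in OLs and 9 were higher in OPCs. By an unadjusted p under 0.05 edgeR had 1 higher in OLs, a threshold to which the shares above do not apply. DESeq2 and limma voom each called 1, and 589 and 638 of all 12292 features in that direction. Their summed normalized counts were 201651 to 348674 in OPCs and 311560 to 384991 in OLs, of which stmn1 made up 91.3 to 97.2%. Without the 2 largest members the sums were 7095 to 19020 in OPCs and 4411 to 7104 in OLs. Of the radial glia markers 17 were tested, 1 was higher in OLs and 8 were higher in OPCs. Their sums were 125102 to 173240 in OPCs and 115644 to 166119 in OLs, and without the 2 largest members 24052 to 46442 and 17655 to 23674. gfap, a defining marker, was at 24.5 to 205 normalized counts in OPCs and 14.5 to 49.8 in OLs, ranges that overlap. It was also chosen after its values were seen and does not stand for the 17 tested.

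Schwann cells also express cldnk. Of their 8 tested markers, 1 was higher in OLs and 3 were higher in OPCs, against 2.82% and 9.01% of all features. The 1 higher in OLs was mpz, which oligodendrocytes of fish also express and which is counted among the myelin genes above. It made up at least 99.1% of the sum of this list. Without mpz and sox10 the sum of this list was 1645 to 3915 normalized counts in OPCs and 1263 to 1810 in OLs. Of leukocyte markers 5 were tested and 0 passed, with sums of 2211 to 7034 in OPCs and 3836 to 14814 in OLs, mostly from apoeb. Of endothelial and blood cell markers 1 was tested and 0 passed, and their sums stayed between 8.57 and 85.5. At an unadjusted p under 0.05 edgeR had 1 leukocyte and 0 endothelial markers higher in OLs, with no share over all features given at that threshold. DESeq2 called the 1 leukocyte marker and limma voom called 0, beside 589 and 638 of all 12292 features in that direction.

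Within each population cldnk varied with a coefficient of variation of 14.3% in OPCs and 12.3% in OLs. On the log2 scale OPC library 5 lay 0.37 and OL library 5 lay 0.29 below the mean of their population. OPC library 5 also stood apart from the other libraries by gene length. In it the shortest of 3 nearly equal classes of tested features, up to 1873 bases of exon, lay at a median of -0.31 from the population mean, and the longest, from 3200 bases, at 0.35. In OL library 5 the medians were -0.05 and 0.11, a gap no larger in size than that of OL library 1, at 0.08 and -0.09. With 1729 bases cldnk belongs to the shortest class, and the part of length in its values was not tested. Scaling on features of 1000 to 3000 bases gave a log2 fold change of 0.59 (adjusted p = 0.00514), and leaving out both libraries gave 0.62 (adjusted p = 0.00403). Both settings were chosen after the data were seen.

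**Figure D4:**
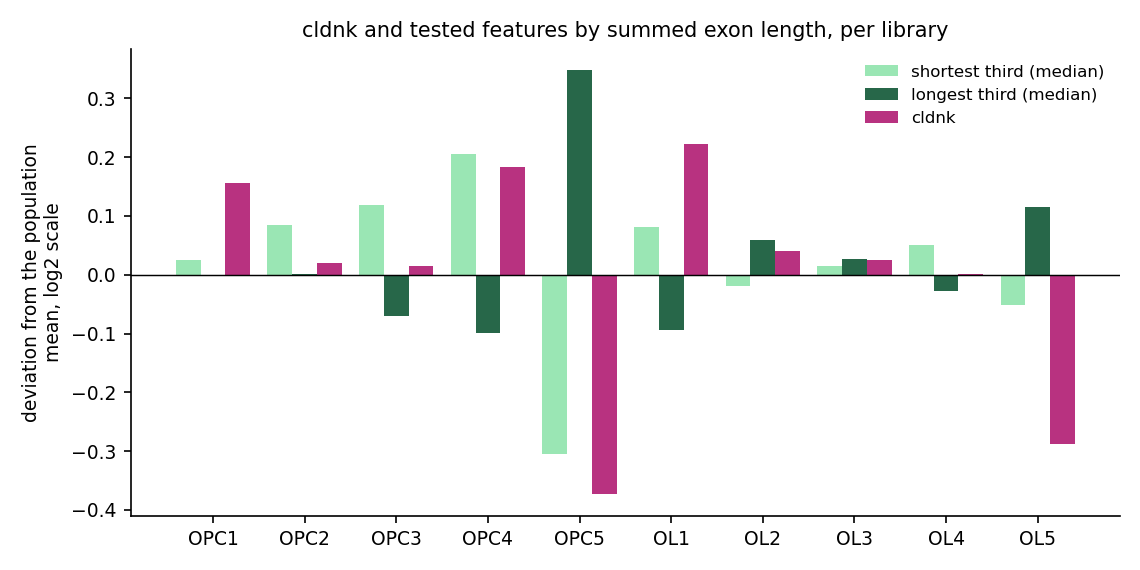
Bars give, for each of the 10 libraries, the deviation from the population mean on the log2 scale as the median of the shortest and of the longest class of tested features, and as the value of cldnk. In OPC library 5 the shortest features lie at -0.31, the longest at 0.35 and cldnk at -0.37.

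The features most like cldnk over the 10 libraries were sought among 7970 whose mean reached 100 normalized counts in 1 of the populations or both. By Pearson's r of log2 values these were znf706 (0.983), si:ch211-114n24.6 (0.970), csrp1 (0.963), ndufb7 (0.957), ENSDARG00000095579 (0.954), plp1b (0.952), si:dkey-10p5.10 (0.949) and tpd52l2a (0.949). The points share library, depth and population, and the values are a description. znf706 had 2301 to 3010 normalized counts in OPCs and 3342 to 3981 in OLs. mbpa had an r of 0.889 and mpz one of 0.855, whereas cldn19 had 0.113.

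When the population means were taken out, the most alike were mid1ip1 (0.985), med20 (0.974), psma1 (0.962), tuba8l3 (0.958) and si:rp71-19m20.1 (0.956). mid1ip1 encodes a regulator of lipid synthesis, psma1 a proteasome subunit and tuba8l3 a tubulin. These correlations run over the same 10 libraries. The 100 features most like cldnk in this measure had a median exon length of 1506 bases and the 100 least alike 4089 bases, against 2504.5 over all compared. Within populations the other myelin genes did not follow cldnk as a group. The r of deviations was 0.792 for plp1b, 0.412 for mbpa and 0.185 for mpz, but -0.680 for cldn19. Of 33 myelin and claudin features compared, 18 had a negative r, beside 48.5% of all features compared. Every claudin among them was negative, from -0.680 for cldn19 to -0.013 for cldnd1a, so the 18 is not a count of myelin genes alone.

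mag and lgi3 ran opposite to cldnk within the populations, with an r of deviations of -0.828 and -0.753. mag, the gene of a myelin glycoprotein of the sheath's inner face, had 11413 normalized counts in OPC library 5 and 3238 to 4484 in the other OPC libraries. lgi3 had 19882 in OPC library 5 and 2125 to 5240 in the others. In OLs, library 5 was also the highest, with 5650 of mag against 3926 to 4489 and 7075 of lgi3 against 3633 to 5469. In each population this was the library where cldnk was lowest. These 2 were chosen after their values were seen.

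The direction of the cldnk difference was the same under every alternative run. Leaving out 1 library at a time gave log2 fold changes from 0.55 without OPC library 5 to 0.70 without OL library 5, with adjusted p-values of 0.00582 to 0.0249 by edgeR's quasi-likelihood test. DESeq2 gave 0.63 (adjusted p = 0.000507) and limma voom 0.58 (adjusted p = 0.00200). Scaling by library size alone was the 1 setting of 21 in which the adjusted p passed 0.05.

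**Figure D5:**
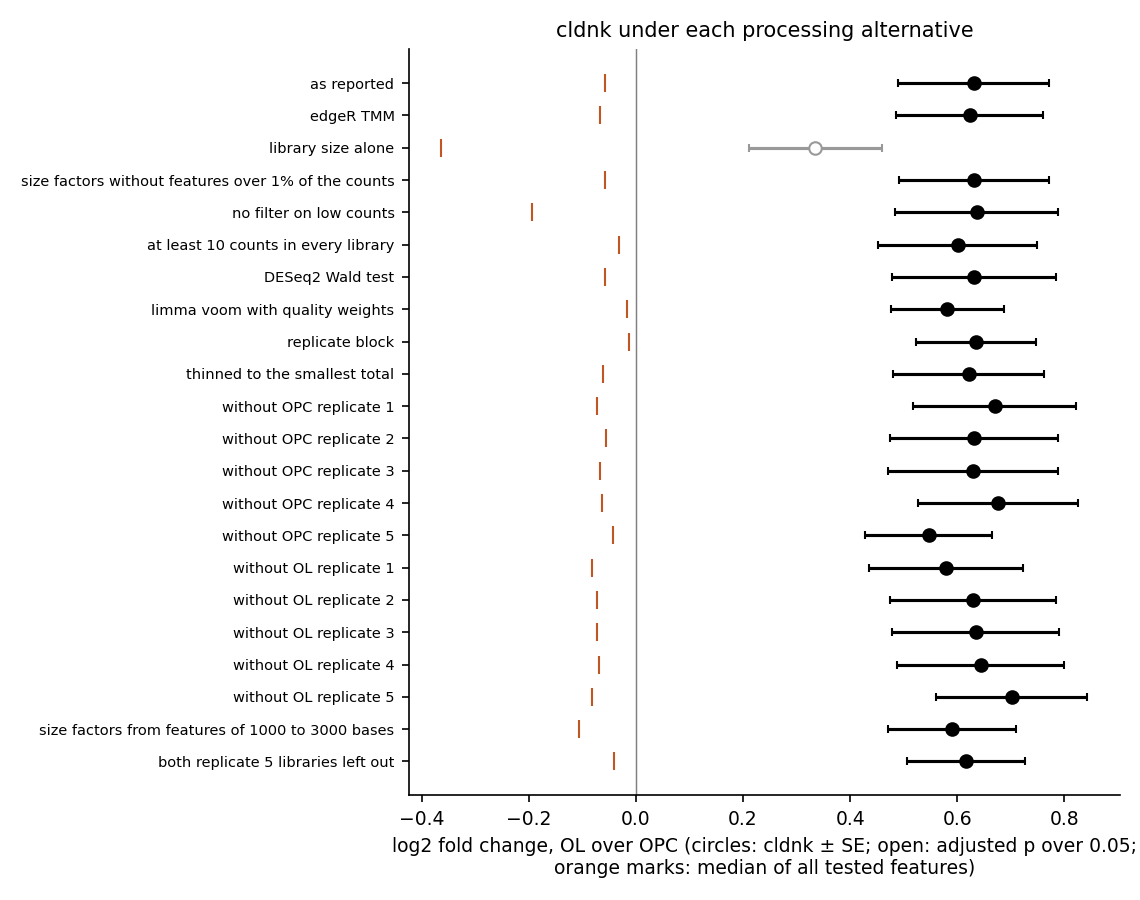
Log2 fold change of cldnk, OL over OPC, under the main setting and each alternative; circles are estimates with SE, open where the adjusted p is over 0.05, and orange marks are the median of all tested features. Estimates of cldnk lie between 0.55 and 0.70 except with library size alone, at 0.34.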

How the data were processed

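RNAseq libraries of FACsorted OPCs and OLs from adult zebrafish spinal cord were single-end reads of 75 bases. Per the submitters' notes and methods, the authors aligned reads with GSNAP to GRCz10 and deposited raw counts per Ensembl 81 gene from featureCounts (1.5.2). How strand and reads with several matches were treated is not given in the sources used here. A value thus counts reads over all exons of a gene, and long genes collect more.

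Features were kept by filterByExpr, scaled by DESeq2 (1.42.0) median-of-ratios size factors and tested with edgeR's (4.0.16) quasi-likelihood test in R (4.3.3), Benjamini-Hochberg adjusted over 12292 features at 0.05. Exact permutation tests were run in Python (3.11.15) on log2(normalized count + 1), on the share of counts and on log2 ratios of counts within a library. limma (3.58.1) and DESeq2 were alternatives. On simulated counts with 200 features changed 4-fold, edgeR called 134, of which 132 were true, DESeq2 179 and 152 (15.1% false), and limma voom 119 and 118. These changes were larger than the 1.55-fold of cldnk, equal in number in both directions and drawn with edgeR's own dispersions. The simulation thus does not rank the tools for cldnk. Libraries of the 2 populations share replicate numbers, but each population is its own fish line, and the fit held no block. Whether same-numbered libraries shared a day of sorting or preparation is not stated, and a fit with that block is given at the end. Symbols came from a reference table that matched 25925 of 31388 identifiers. Paralogs with similar exons could exchange reads.

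cldnk and the gene lists were chosen with earlier results of these data known. Named were the heatmap genes of the study and plp1b, the claudins highest per length or called, and the nearest neighbours. The 8 and 5 features most like cldnk were named too. From the myelin, transcription factor, precursor and tight junction lists, up to 4 of the members with the largest change among those called were named. nkx6-2 was named as the 1 lineage transcription factor called higher in OLs. For the neuron and radial glia lists the calls are given as counts only. Features above cldnk in RPKM and the members that made up most of a list's sum were also named. Other genes outside these rules are marked as chosen after their values were seen. Alternatives are described at the end. No sequence was used here.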

Additional observations from a re-analysis of the deposited data

Results flagged for a closer look

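In 5 of 34 groups of 5 libraries examined, 1 library stood far from the other 4, against 1.70 that chance gives at about 1 in 20. That number supposes independent groups, whereas these share the same libraries and some genes lie near 0 counts. No excess over chance can be read from it. mag and lgi3 also stood far out in OPC library 5 but are not among the 5, so the 34 groups do not cover every gene described here. olig2 stood at 24346 normalized counts in OPC library 5, against 13681 to 16225 in the other OPC libraries. cldn11 stood at 334 in OPC library 4, against 120 to 163. cldn29 stood at 523 in OPC library 2, against 67.5 to 172, and at 13.1 in OL library 5, against 0 to 1.71. cldn7a stood at 20.7 in OL library 5, against 0 to 4.27. Of the 5, 3 were in a library numbered 5, where cldnk was the lowest of its population. cldnk itself had no library that stood apart by this measure.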

How the results depend on the processing

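Of 21 alternatives for the cldnk difference, 20 kept its direction and its side of the threshold, and library size alone gave 0.34 (adjusted p = 0.0905, edgeR). Over all 21 the adjusted p ran from 0.000507 to 0.0905. Library size alone also turned cldn19 to -0.089, left 0 claudins higher in OLs and kept 5 of the 8 features most like cldnk. limma voom called 2 claudins higher in OLs, no filter on low counts called 5 higher in OPCs, and at least 10 counts in every library called 0. That filter takes out a feature with fewer counts in any library before testing, so olig1, cldn7a and cldn29 were no longer tested. It left 9204 features, of which 165 were higher in OLs and 284 in OPCs. Calls higher in OPCs were then 6 lineage transcription factors, 3 precursor, 1 radial glia, 1 neuron and 0 Schwann cell markers. Fewer calls there do not show that a difference was lost, since members near 0 in OLs could not be called. With no filter 372 and 1964 of 25313 were called, 14 of them precursor genes higher in OPCs. DESeq2 called 589 and 1395, and limma voom 638 and 1379, among them 8 myelin genes higher in OLs. Over all alternatives, 1 to 3 tight junction partners were called higher in OPCs. Without the 5 most abundant features in the total, cldnk took 0.787% of counts in OPCs and 1.11% in OLs. Ranked by counts without division by length, its mean rank in OLs was 9.2.

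Leaving out 1 library at a time gave log2 fold changes of -0.36 to 0.29 for cldn11 and of -0.087 to 0.091 for cldn15b, which also turned to 0.0045 with libraries thinned to 1 depth. The difference in log2 ratio of cldnk to mbpa ran from -0.27 to -0.11, to mpz from -0.037 to 0.11 and to plp1b from -0.22 to -0.14. Without OL library 1 the exact permutation test gave p = 0.0159 for mbpa and p = 0.0476 for plp1b, before adjustment. Between 3 and 6 of the 8 features most like cldnk were retained. The cause of these changes was not tested.

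Libraries with the same number deviated together weakly, with r of 0.0240 to 0.105 against -0.102 to 0.0730 for different numbers, and 8 of the 10 correlated best with their own number. The exact permutation tests took no account of such a link. With the replicate block cldnk was at 0.63 (adjusted p = 0.00669), 374 features were higher in OLs and 1033 in OPCs. cldnk was read too deeply for the counting of reads to limit its values. The sampling of cells and molecules before the cDNA was amplified lies outside that error. Claudins with at most 60 counts in any library could not be compared, which does not show that they are absent. The 5 libraries a population set the precision.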
